A study of Mus musculus with 12 samples.

Results

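The genes described here encode beta-catenin (Ctnnb1), 3 further catenins (Ctnna1, Ctnnd1 and Jup) and 6 cadherins (Cdh1, Cdh2, Cdh3, Cdh6, Cdh11 and Cdh16). They were chosen by name, and every Affymetrix probe set whose single annotated gene symbol is one of the 10 was kept, whatever its level. That gave 15 of the 20380 probe sets that carry 1 symbol, and 10 of the 12393 genes these probe sets name. Ctnnb1 and Ctnna1 had 3 probe sets each, Cdh2 had 2, and the other 7 genes had 1 each.

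Cadherins are membrane proteins that bind the same or a related cadherin on the neighbouring cell through calcium-dependent contacts. Inside the cell their tails hold beta-catenin or plakoglobin, which bind alpha-catenin and through it actin, while p120 catenin binds nearer the membrane and keeps cadherins at the surface. Beta-catenin that is not held there and not degraded enters the nucleus, where it acts with TCF and LEF factors in Wnt signalling. In the developing kidney the ureteric bud and the nephron tubules carry epithelial cadherins, while cap mesenchyme and stroma carry mesenchymal ones.

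The study measured RNA of cultured fetal mouse kidneys of strain C57BL/6 on 12 one-colour arrays. 6 arrays were labelled beta-catenin activated, with tumors in the cultured kidney, and 6 were labelled wild type, from normal cultured kidney. The pregnant mice of both groups received tamoxifen at 10.5 days post coitum, at 2 mg per 40 g by intraperitoneal injection. Kidneys were dissected that day and kept in culture for 3 to 4 days. The labels name neither the activated allele nor a Cre driver, and do not say whether the wildtype kidneys carried an allele. They also do not say that arrays of a group came from separate animals. Sex-linked signal differed within groups: 3 arrays had Xist without Y-linked signal (wildtype arrays 2 and 5 and activated array 6). Activated array 4 had both, and 8 arrays had Y-linked signal alone. The arrays of a genotype were thus not all repeats of 1 RNA sample, but whether each came from a separate animal is not known. The p-values measure the spread between arrays, which may be in part technical. The titles carry numbers that fall into a lower and a higher run, each with 3 activated and 3 wildtype arrays. What the numbers stand for is not stated. Because whole kidneys were measured, fewer cells of a type and less RNA per cell cannot be told apart in any value below.

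All levels are log2(intensity + 16) after quantile normalisation, where 1 unit is a doubling of intensity plus offset, and tests are limma's moderated test over all 20380 probe sets with Benjamini-Hochberg adjustment and a threshold of 0.05. The levels of different probe sets were not set against each other, since probes differ in how brightly they hybridise. The highest value of the 27 bacterial control probe sets on any array was 5.45 on this scale, called the control level below. Of kidney cell markers, all 6 of cap mesenchyme and all 6 of renal stroma averaged above that value, as did 3 of 6 for ureteric epithelium, where Ret, Wnt9b and Hoxb7 did not. The Gapdh 5'/3' ratio, a measure of how complete the RNA was, lay between -2.63 and -1.05 (log2) on 11 arrays and at 0.08 on activated array 2. Array numbers 1 to 3 of each genotype belong to the lower run and 4 to 6 to the higher run.

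Ctnnb1, the gene named in the genotype, passed the test between activated and wildtype kidneys on 0 of its 3 probe sets. Activation of beta-catenin is known to act on the stability of its protein, so its mRNA is no check of the genotype labels, and no source used here gives where its probes lie relative to any deleted exon. Probe set 1420811_a_at gave 12.90, 12.85, 12.97, 13.01, 12.86 and 12.94 on activated arrays 1 to 6, against 12.86, 12.90, 12.90, 13.06, 13.12 and 13.01 on wildtype arrays 1 to 6. The groups overlapped, and after quantile normalisation the whole spread of the 12 arrays was small, at 0.26. Deposited intensities ranged over 6661 to 9024 on the activated and over 7173 to 8955 on the wildtype arrays. The normalised means were 12.92 ± 0.06 in activated and 12.97 ± 0.10 in wildtype kidneys (SD, n = 6 each). The log2 difference was -0.05 (95% interval -0.18 to 0.07, limma adjusted p = 0.978).

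The other Ctnnb1 probe sets varied far more from array to array. 1450008_a_at averaged 10.13 ± 0.47 in activated and 10.26 ± 0.37 in wildtype kidneys (SD, n = 6 each), a difference of -0.13 (interval -0.57 to 0.32). 1430533_a_at gave 8.75, 10.31, 8.35, 7.95, 7.56 and 9.88 on activated arrays 1 to 6, against 8.20, 9.57, 8.95, 9.58, 9.89 and 8.22 on wildtype arrays 1 to 6. High and low arrays occurred in both groups and in both runs. The difference of 1430533_a_at was -0.27, with a wide interval of -1.21 to 0.68. With the Gapdh 5'/3' ratio as a covariate, it was -0.72 (limma adjusted p = 0.551).

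These 2 probe sets moved together and the first one moved apart from them. Over the 12 arrays 1450008_a_at and 1430533_a_at had a Pearson r of 0.930, while 1420811_a_at had r = 0.320 with 1450008_a_at and r = 0.175 with 1430533_a_at; the points share their arrays and scaling, and the values are given as a description. The array to array course of 1430533_a_at also ran with the Gapdh 5'/3' ratio (r = 0.698, rho = 0.622, permutation p = 0.00666, adjusted over 15 relations 0.0250). The relation had r = 0.575 in the higher run (exact permutation p = 0.171) and r = 0.961 in the lower run (exact permutation p = 0.00556). With activated array 2 and wildtype array 2 left out, whose ratios lay farthest from the median, the coefficient was 0.528. Activated array 6, with the next highest ratio (-1.14) and a level of 9.88, was kept. The rho of 1430533_a_at had an adjusted permutation p of 0.0735. For 1420811_a_at the same relation had r = -0.433 and an adjusted permutation p of 0.264. For 1450008_a_at it had r = 0.549 and an adjusted permutation p of 0.116. Within runs 1450008_a_at had r = 0.963 in the lower run (exact permutation p = 0.0111) and r = 0.423 in the higher run (exact permutation p = 0.476).

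**Figure D1:**
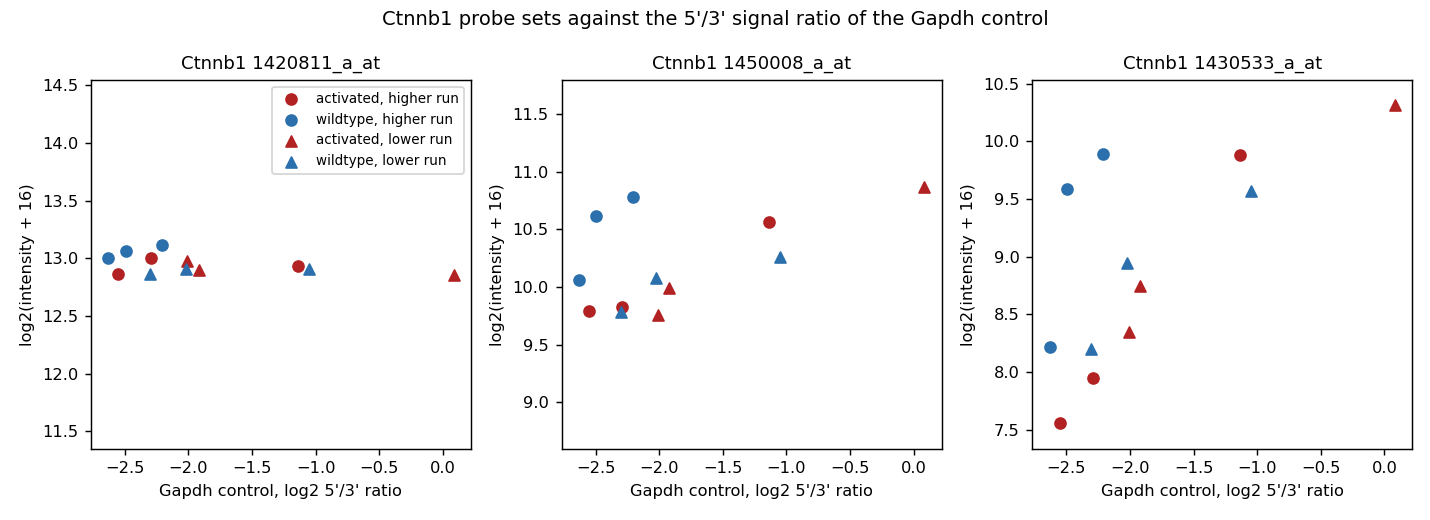
Level of each of the 3 Ctnnb1 probe sets (vertical axis, log2(intensity + 16), quantile normalised) against the log2 5'/3' ratio of Gapdh (horizontal axis), 1 panel per probe set and 1 point per array. The array at the far right of each panel, with a ratio of 0.08, is activated array 2; 1430533_a_at rises with the ratio (r = 0.698) and 1420811_a_at does not (r = -0.433).

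None of the probe sets of the junction catenins passed the test between genotypes either. Ctnna1, alpha-catenin, which links the complex to actin, averaged 12.08 ± 0.14 in activated and 12.11 ± 0.19 in wildtype kidneys on 1437807_x_at (SD, n = 6 each), a difference of -0.03 (interval -0.23 to 0.17). Its second probe set, 1448149_at, averaged 11.62 ± 0.17 in activated and 11.52 ± 0.29 in wildtype kidneys, a difference of 0.10 (interval -0.16 to 0.37). The sign on 1437807_x_at depends on the scaling, since the difference was 0.0032 with the values as deposited. The third probe set, 1437275_at, lay below the control level on all 12 arrays, so no fold is given for it. In Affymetrix names the suffixes _x_at and _s_at, which Ctnna1 1437807_x_at and Jup carry, mark probe sets that may also match transcripts of other genes. These Ctnna1 probe sets correlated with r = 0.578 between 1437807_x_at and 1448149_at over the 12 arrays.

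Ctnnd1, p120 catenin, ranged over 6.54 to 7.70 (median 6.85) on the activated arrays and over 6.35 to 7.65 (median 7.14) on the wildtype arrays. The difference was -0.16 (interval -0.69 to 0.36). Jup, plakoglobin, the catenin that also serves desmosomes, ranged over 6.52 to 7.77 (median 7.22) on the activated arrays and over 6.65 to 7.88 (median 7.44) on the wildtype arrays. Its difference was -0.16 (interval -0.64 to 0.33), and for both genes the groups overlapped nearly throughout. With the Gapdh 5'/3' ratio as a covariate the differences were above 0, at 0.055 for Ctnnd1 and 0.05 for Jup, so neither sign is settled.

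**Figure D2:**
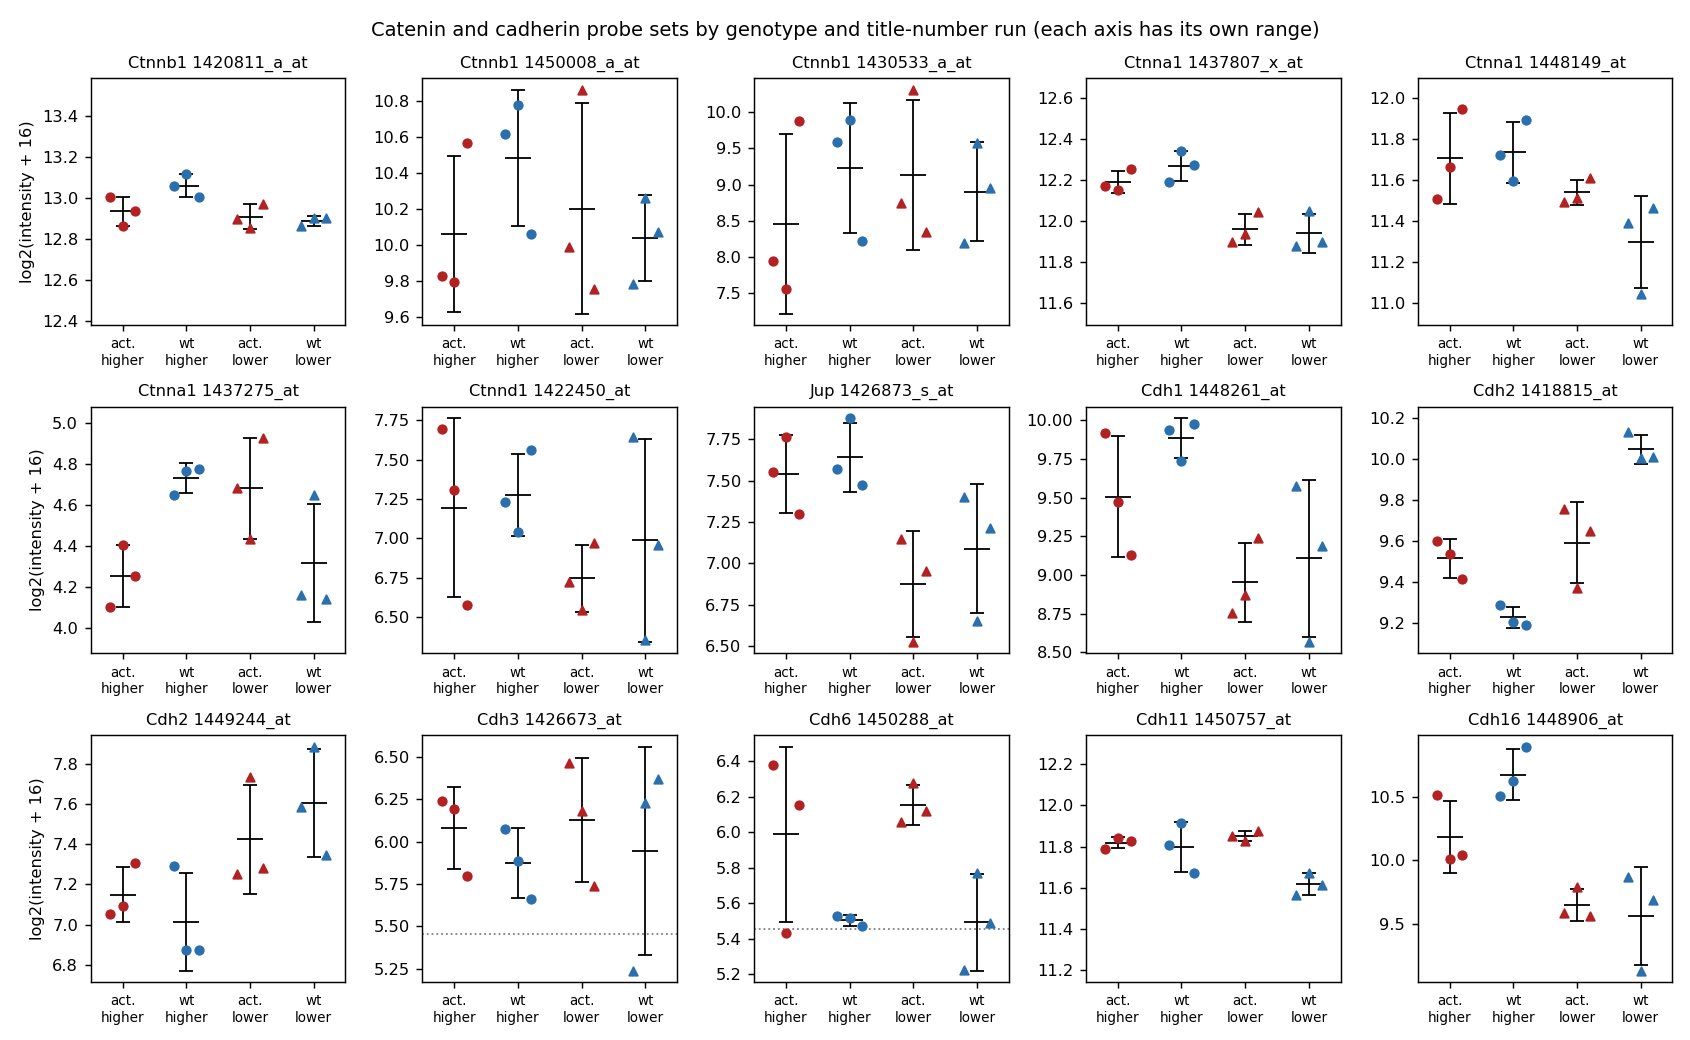
Level of each of the 15 probe sets (log2(intensity + 16), quantile normalised, vertical axis) in activated and wildtype kidneys, 1 point per array, split by run of title numbers, with circles for the higher run, triangles for the lower run and bars for mean ± SD of 3 arrays. The dotted line in the Cdh3 and Cdh6 panels marks the control level of 5.45; the Cdh2 1418815_at panel shows all activated arrays (9.37 to 9.76) between the wildtype arrays of the higher run (9.19 to 9.29) and of the lower run (10.01 to 10.13).

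Of the epithelial cadherins, Cdh1 (E-cadherin) is carried by the ureteric bud and by nephron epithelium. It gave 8.75, 8.87, 9.24, 9.92, 9.47 and 9.13 on activated arrays 1 to 6, against 9.57, 8.57, 9.19, 9.94, 9.74 and 9.98 on wildtype arrays 1 to 6. The lowest and the highest array were both wildtype, so the activated values lay within the wildtype range. Cdh1 averaged 9.23 ± 0.42 in activated and 9.50 ± 0.54 in wildtype kidneys (SD, n = 6 each), a difference of -0.27 (interval -0.78 to 0.24, limma adjusted p = 0.969). With the Gapdh 5'/3' ratio as a covariate the difference was -0.06.

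Cdh16, kidney-specific cadherin, is a cadherin of renal tubule epithelium. Its levels were 9.59, 9.79, 9.56, 10.52, 10.01 and 10.04 on activated arrays 1 to 6, against 9.87, 9.13, 9.69, 10.51, 10.62 and 10.90 on wildtype arrays 1 to 6. In both genotypes arrays 4 to 6 were above arrays 1 to 3, and the genotypes overlapped. The mean was 9.92 ± 0.36 in activated and 10.12 ± 0.67 in wildtype kidneys, a difference of -0.20 (interval -0.76 to 0.35), and -0.05 with the 5'/3' ratio as a covariate. Cdh3 (P-cadherin), best known from basal epithelial layers and placenta, stood close to the control level and was above the control level on 11 of 12 arrays; its difference was 0.19 (interval -0.26 to 0.64).

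Among the remaining cadherins, Cdh11 and Cdh6 had the higher values in activated kidneys. Cdh11, known from mesenchyme and stroma, gave 11.85, 11.83, 11.88, 11.79, 11.84 and 11.83 on activated arrays 1 to 6, against 11.56, 11.67, 11.61, 11.81, 11.92 and 11.67 on wildtype arrays 1 to 6. The activated arrays formed a narrow band at the upper end of the wildtype range. The difference was 0.13 (SE 0.07, interval -0.02 to 0.27, limma unadjusted p = 0.0785).

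Cdh6 (K-cadherin), found in the renal vesicle and early proximal tubule of the developing nephron, had the largest difference between genotypes among the 15 probe sets, at a low level. It gave 6.06, 6.28, 6.12, 6.38, 5.43 and 6.16 on activated arrays 1 to 6, against 5.22, 5.77, 5.49, 5.53, 5.51 and 5.47 on wildtype arrays 1 to 6. Activated array 5 lay among the wildtype arrays, and the other 5 activated arrays lay above all 6 wildtype arrays. The control level was exceeded on 10 of 12 arrays. Means were 6.07 ± 0.33 in activated and 5.50 ± 0.17 in wildtype kidneys (SD, n = 6 each), a log2 difference of 0.57 (SE 0.18, interval 0.18 to 0.96). Its unadjusted p was 0.0067 and its limma adjusted p 0.624, so the difference did not pass the test over all probe sets. With the Gapdh 5'/3' ratio as a covariate the difference was 0.49 (limma adjusted p = 0.498).

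Cdh2 (N-cadherin), carried by mesenchyme and by several early nephron epithelia, averaged 9.56 ± 0.15 in activated and 9.64 ± 0.45 in wildtype kidneys on 1418815_at (SD, n = 6 each). The difference was -0.08 (interval -0.45 to 0.28), and the wildtype spread was much the wider. On 1449244_at it averaged 7.29 ± 0.24 in activated and 7.31 ± 0.40 in wildtype kidneys, a difference of -0.02 (interval -0.42 to 0.38).

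Over the 12 arrays, 0 of the 15 probe sets passed the adjusted threshold between activated and wildtype kidneys in limma; over all probe sets 2 did, which is 0.00981%. At an unadjusted p under 0.05 the count was 1 of 15 (Cdh6), beside 5.67% of all probe sets. The median difference of the 15 was -0.06 and that of all probe sets -0.01, with 4 of the 15 above 0 (Cdh6, Cdh3, Cdh11 and Ctnna1 1448149_at) and 11 below, beside 48.5% of all probe sets above 0. In no probe set did the 6 activated arrays stand wholly apart from the 6 wildtype arrays, beside 0.471% of all probe sets that did. With the run of title numbers as a term, 0 of 15 passed as well, against 0.0687% of all probe sets, and Cdh6 had an adjusted p of 0.399.

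**Figure D3:**
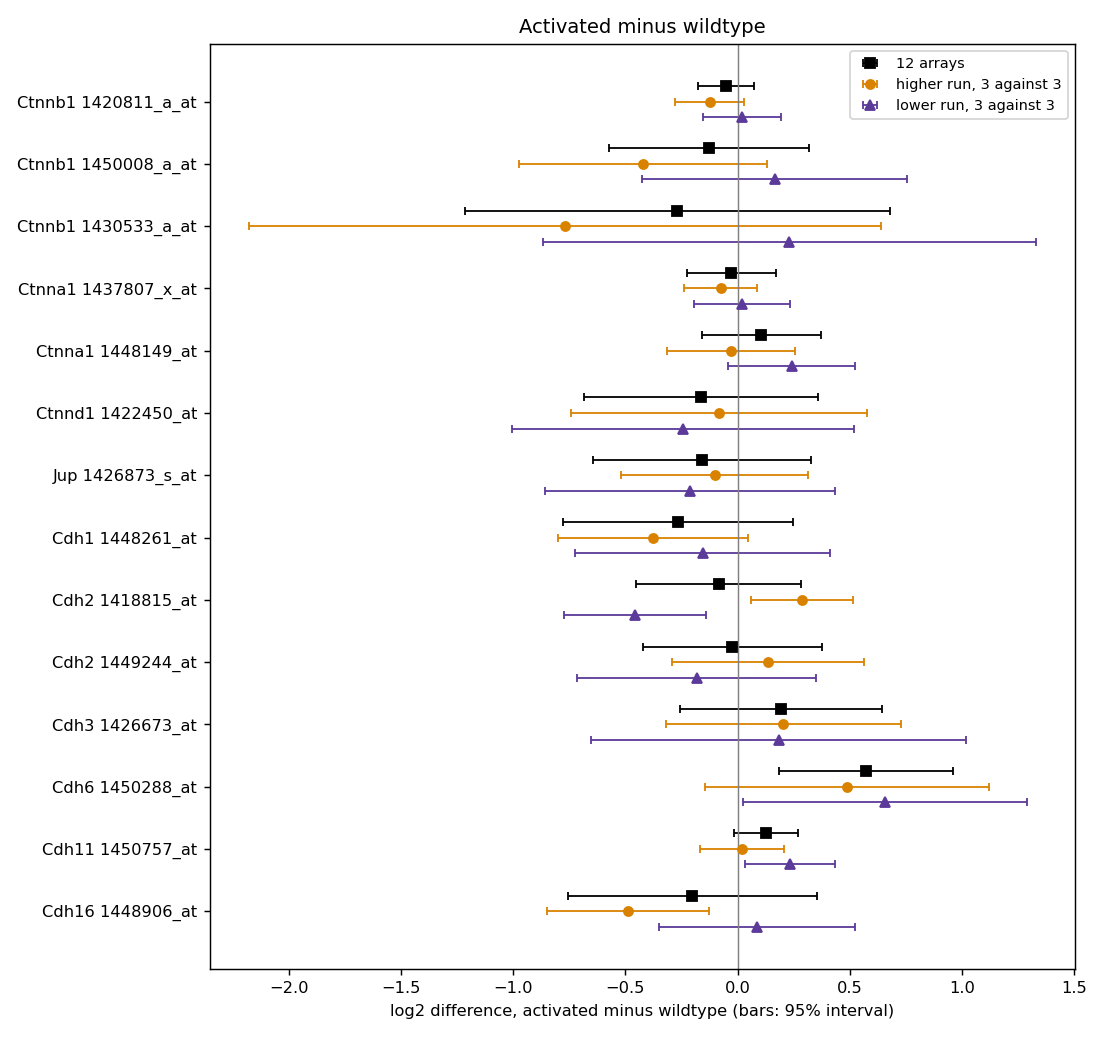
Difference of activated minus wildtype kidneys (log2, horizontal axis) for each probe set except Ctnna1 1437275_at, which lay below the control level, in 3 fits: all 12 arrays, the higher run and the lower run. Points are limma estimates and lines their 95% intervals; Cdh6 lies above 0 in each fit, and Cdh2 1418815_at lies at 0.29 in the higher run and at -0.46 in the lower run.

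The comparison was repeated within each run, with 3 activated against 3 wildtype arrays. In neither run did any of the 15 probe sets pass the adjusted threshold, beside 0.00491% of all probe sets in the higher run and 0.373% in the lower run. At an unadjusted p under 0.05 the count was 3 of 15 in the higher run (Cdh2 1418815_at, Cdh16 and Ctnna1 1437275_at, the last below the control level throughout), against 5.76% of all probe sets. In the lower run it was 3 of 15 (Cdh2 1418815_at, Cdh6 and Cdh11), against 6.22%. The groups did not overlap in 2 of 15 probe sets in the higher run (Cdh2 1418815_at and, below the control level, Ctnna1 1437275_at), against 11.2% of all. In the lower run they did not overlap in 4 of 15 (Cdh2 1418815_at, Cdh6, Cdh11 and Ctnna1 1448149_at), against 11.7%.

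Cdh2 1418815_at had opposite signs in the runs. In the higher run 1418815_at gave 9.60, 9.54 and 9.42 on the activated arrays, against 9.29, 9.21 and 9.19 on the wildtype arrays. In the lower run it gave 9.76, 9.37 and 9.65 on the activated arrays, against 10.13, 10.01 and 10.01 on the wildtype arrays. All 6 activated arrays thus lay between the wildtype arrays of the higher run and those of the lower run. The activated minus wildtype difference was 0.29 in the higher run (SE 0.10, limma unadjusted p = 0.0199, adjusted p = 0.813) and -0.46 in the lower run (SE 0.14, unadjusted p = 0.0097, adjusted p = 0.449).

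The difference between those effects, higher minus lower run, was 0.74 for 1418815_at (SE 0.17, interval 0.38 to 1.10, limma unadjusted p = 0.0006, adjusted p = 0.154). It therefore did not pass the threshold over all probe sets, of which 0.186% did and of the 15 none. At an unadjusted p under 0.05 the count for this difference was 3 of 15 (Cdh2 1418815_at, Cdh16 and, below the control level, Ctnna1 1437275_at), against 5.52% of all probe sets. With the Gapdh 5'/3' ratio of each array as a covariate the value was 0.73 and the adjusted p 0.0184, so for this probe set the call depends on that term. The other Cdh2 probe set, 1449244_at, had a difference of 0.32 (SE 0.30, interval including 0) and correlated with the first at r = 0.587 over the 12 arrays.

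The Cdh6 difference of means was 0.49 in the higher run (interval -0.15 to 1.12), where activated array 5 lay below all 3 wildtype arrays, and leaving out an array there moved it between 0.29 (without activated array 4) and 0.76 (without activated array 5). In the lower run it was 0.66 and the groups did not overlap (limma unadjusted p = 0.0430, adjusted p = 0.765). Cdh11 differed by 0.02 in the higher run and by 0.23 in the lower run, where the groups again did not overlap (adjusted p = 0.664). Cdh16 differed by -0.49 in the higher run (SE 0.16, unadjusted p = 0.0139, adjusted p = 0.771). There its groups overlapped through activated array 4, at 10.52, and wildtype array 4, at 10.51. The difference between the runs in the effect on Cdh16 was -0.57 (unadjusted p = 0.0493, adjusted p = 0.906). Ctnnb1 on 1420811_a_at differed by -0.13 in the higher run, with 13.01, 12.86 and 12.94 on the activated arrays against 13.06, 13.12 and 13.01 on the wildtype arrays. The other Ctnnb1 probe sets differed there by -0.42 (1450008_a_at, interval -0.98 to 0.13) and -0.77 (1430533_a_at, interval -2.18 to 0.64), and -0.77 was the largest genotype difference among the 15 in that run.

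The largest differences of these genes lay between the runs of title numbers, within wildtype kidneys. Of the 15 probe sets, 3 passed the adjusted threshold between the 3 wildtype arrays of the higher run and the 3 of the lower run, against 3.49% of all probe sets. Of these, 2 were higher in the higher run, against 2.43% of all, and 1 was lower, against 1.06%. At an unadjusted p under 0.05 the count was 9 of 15, against 15.4% of all, and in 8 of 15 the runs did not overlap, against 23%. What the runs stand for is not in the labels, and whatever differed between them cannot be told apart here.

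Cdh16 was higher in the higher run of wildtype kidneys. It gave 10.51, 10.62 and 10.90 on the higher-run arrays, against 9.87, 9.13 and 9.69 on the lower-run arrays. The 3 higher-run values all stood above the 3 lower-run values. The difference was 1.12 (SE 0.19, interval 0.71 to 1.52), a 2.17-fold higher intensity plus offset, with a limma adjusted p of 0.00415.

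Cdh2 went the other way. On 1418815_at its deposited intensities were 624, 584 and 593 on the wildtype higher-run arrays, against 1103, 981 and 1010 on the wildtype lower-run arrays. The log2 difference was -0.82 (SE 0.12, interval -1.07 to -0.56, limma adjusted p = 0.00145), and the values did not overlap. On 1449244_at the difference had the same sign, at -0.59 (SE 0.21), with an adjusted p of 0.167.

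Ctnna1 on 1437807_x_at was the third, at 12.27 ± 0.08 in the higher run and 11.94 ± 0.09 in the lower run of wildtype kidneys (SD, n = 3 each). Its difference was 0.33 (SE 0.08, limma adjusted p = 0.0341) after quantile normalisation. With the values as deposited it was 0.12 (adjusted p = 0.654), and with the arrays centred on their medians 0.13 (adjusted p = 0.822), so both the call and the size rest on the scaling. The call was also lost without wildtype array 1, 3, 4, 5 or 6, with adjusted p between 0.0634 and 0.152. The sign for Ctnnb1 on 1420811_a_at turned with the scaling too: it was 0.17 after quantile normalisation (adjusted p = 0.209) and -0.18 with the values as deposited (adjusted p = 0.464).

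Cdh1 had values of 9.94, 9.74 and 9.98 on the wildtype higher-run arrays, against 9.57, 8.57 and 9.19 on the wildtype lower-run arrays. These did not overlap, yet the difference of 0.78 (SE 0.24) missed the threshold (limma adjusted p = 0.106). With the mean level of Y-linked genes as a covariate it was 0.82 (adjusted p = 0.0154), and without wildtype array 1 it was 1.01 (adjusted p = 0.0449). Without wildtype array 2, the lowest, it was 0.51 (adjusted p = 0.329). Jup differed by 0.55 (adjusted p = 0.278).

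In activated kidneys 0 of the 15 probe sets passed between the runs, against 3.39% of all probe sets, and 4 of 15 had an unadjusted p under 0.05 in limma, against 14.7%. The runs did not overlap in 4 of 15, against 18.3%. The 4 with an unadjusted p under 0.05 were Jup at 0.66 (adjusted p = 0.192), Cdh1 at 0.55 (0.300), Cdh16 at 0.54 (0.170) and Ctnna1 1437807_x_at at 0.23 (0.157), each higher in the higher run. Cdh2 1418815_at differed by -0.08 in activated kidneys (interval -0.33 to 0.18), against -0.82 in wildtype kidneys. The test of that contrast is the difference of effects given above, with an adjusted p of 0.154.

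**Figure D4:**
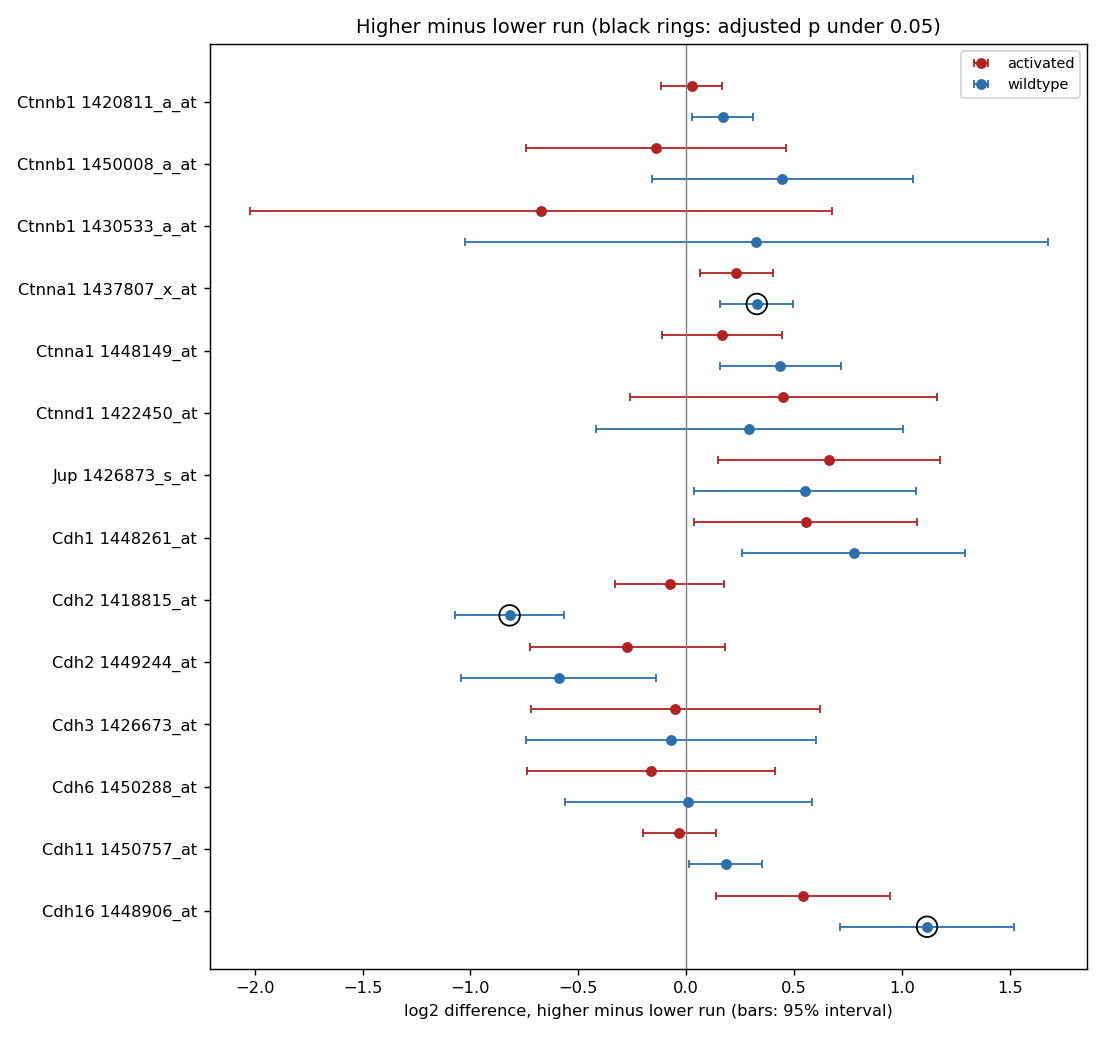
Difference of the higher minus the lower run of title numbers (log2, horizontal axis) for each probe set except Ctnna1 1437275_at, which lay below the control level, in activated and in wildtype kidneys, 3 arrays against 3. Lines are 95% intervals and black rings mark an adjusted p under 0.05; the rings are on Cdh2 1418815_at (-0.82), Cdh16 (1.12) and Ctnna1 1437807_x_at (0.33), all in wildtype kidneys.

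The share of the spread over the 12 arrays that went with run and with genotype differed between the probe sets. After quantile normalisation run took 81.0% of the variance of Ctnna1 1437807_x_at, 68.7% of that of Cdh16, 58.2% of that of Jup, 52.4% of that of Cdh2 1418815_at, 51.8% of that of Cdh2 1449244_at and 51.7% of that of Cdh1. Genotype took at most 8.28% (Cdh1) of the variance of each of these. Run also took the larger share for Ctnna1 1448149_at (44.5%), Ctnnb1 1420811_a_at (37.0%), Ctnnd1 (18.5%) and Ctnnb1 1450008_a_at (3.82%). Cdh6 and Cdh11 were the other way round: genotype took 58.2% for Cdh6 and 35.1% for Cdh11, and run 1.04% and 12.2%. Genotype also took the larger share, though under 10%, for Cdh3, Ctnnb1 1430533_a_at and Ctnna1 1437275_at. The shares were not computed under other scalings. In wildtype kidneys the run difference of Ctnna1 1437807_x_at was 0.33 after quantile normalisation and 0.12 with the values as deposited. That of Ctnnb1 1420811_a_at was 0.17 and -0.18, so the run shares of these probe sets rest on the scaling.

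Several members also ran with the Gapdh 5'/3' ratio, which was tested for all 15 probe sets. After adjustment 5 relations passed: Ctnnd1 (r = -0.781, rho = -0.874, adjusted permutation p = 0.0096), Jup (r = -0.810, rho = -0.790, adjusted p = 0.0096), Cdh1 (r = -0.725, rho = -0.867, adjusted p = 0.0218), Cdh2 1449244_at (r = 0.701, rho = 0.629, adjusted p = 0.0314) and the Ctnnb1 probe set described above. With activated array 2 and wildtype array 2 left out, r was -0.780 for Ctnnd1, -0.492 for Jup, -0.676 for Cdh1 and 0.350 for Cdh2 1449244_at. The relations of Jup and of Cdh2 1449244_at thus rest in part on those arrays, and the rho of Cdh2 1449244_at had an adjusted p of 0.0735. Activated array 6, with a ratio of -1.14 near the -1.05 of wildtype array 2, was kept. Its part in these relations was not tested. Within the higher run r was -0.820 for Ctnnd1, -0.554 for Jup and -0.795 for Cdh1, and within the lower run it was -0.696 for Ctnnd1, -0.908 for Jup and -0.584 for Cdh1. Of the 10 within-run relations of these 5 probe sets, an exact permutation p under 0.05 was reached by Jup (0.00417) and Ctnnb1 1430533_a_at, both in the lower run. The part of RNA completeness in the levels of these genes was not tested beyond the fits with the ratio as a covariate.

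Genes that work with the catenins and cadherins were described from fixed lists, and between activated and wildtype kidneys 0 members of any of the 7 lists passed over the 12 arrays in limma. Each gene was read by its brightest probe set. Over the 12 arrays, at an unadjusted p under 0.05, other cadherins and catenins had 2 genes higher and 2 lower. Epithelial genes had 1 lower and mesenchymal genes and repressors 3 higher, while the other 4 lists had 0. Over all probe sets the share was 5.67%. Of the destruction complex, which marks beta-catenin for degradation, 12 of 14 genes were measured and 1 of them lay above 0 (Btrc, at 0.18), with a median difference of -0.10 beside -0.01 for all probe sets. Fbxw11, a ubiquitin ligase subunit, had -0.14, and the kinase Csnk1d also -0.14. Of the nuclear partners of beta-catenin 8 of 10 were measured and 1 lay above 0 (Smarca4, at 0.015), with a median of -0.13. Here Ctnnbip1, an inhibitor of TCF binding, had -0.37 and the coactivator Crebbp -0.27. The genes given in brackets after such counts were picked after their values were seen.

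Of other cadherins and catenins 15 of 20 were measured, 9 of them above 0, with a median of 0.11. Cdh13, a cadherin anchored by lipid, had 0.74 (limma unadjusted p = 0.0321) and Cdh22 had 0.54 (unadjusted p = 0.0301). A further 2 genes of the list were lower at an unadjusted p under 0.05, and its lowest value was -0.37. Of the 15, 8 averaged above the control level, and Cdh13, at 5.70 in activated and 4.96 in wildtype kidneys, was not among them. Junction adaptors and nectins had 10 of 12 measured, 5 above 0 (Vcl, Actn4, Tjp1, Nectin1 and Lima1), and a median of 0.01. The desmosome list had 7 of 7 measured, 1 above 0 (Pkp3, at 0.31), and a median of -0.12.

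Epithelial genes had 17 of 17 measured, 3 above 0 (Krt18, Krt19 and Cldn6), and a median of -0.14. Esrp1, a splicing regulator of epithelia, had -0.46 (limma adjusted p = 0.686). Mesenchymal genes and repressors of cadherin transcription had 9 of 9 measured, 7 above 0, and a median of 0.22. Twist1, a repressor of Cdh1, had 0.79 (adjusted p = 0.390) and Vim, the intermediate filament of mesenchyme, 0.24 (adjusted p = 0.383). None of these values passed the test. In the higher run 14 of 17 epithelial genes lay below 0, and 5 were lower at an unadjusted p under 0.05 in limma, against 5.76% of all probe sets. In the lower run 12 of 17 lay below 0, and 1 was lower at that p, against 6.22%. Of the 17, 0 passed the adjusted threshold in either run.

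Between the runs, more genes of these lists passed, and nearly all of them were higher in the higher run. For comparison, 2.36% of all probe sets were called higher and 1.04% lower in activated kidneys, against 2.43% higher and 1.06% lower in wildtype kidneys. In activated kidneys 3 of 17 epithelial genes rose and 0 fell: the keratins Krt19 (2.03) and Krt8 (1.17) and the protease inhibitor Spint2 (0.56). In wildtype kidneys 5 of 17 rose and 0 fell: Krt19 (2.53), Krt7 (1.67), the tight junction gene Cldn7 (1.28), Spint2 (1.24) and Krt8 (1.16). Of the desmosome genes 2 of 7 rose in activated kidneys (Perp 1.63, Pkp2 0.79), and 4 of 7 in wildtype kidneys (Perp 1.71, Dsp 0.96, Dsg2 0.93, Pkp2 0.75). Of the junction adaptors and nectins 3 of 10 rose in activated kidneys (Ezr 1.09, Nectin2 0.83, Vcl 0.70), and 2 of 10 in wildtype kidneys (Ezr 0.92, Vcl 0.50). Of 9 mesenchymal genes and repressors, Snai2, a repressor of Cdh1, rose by 1.10 in wildtype kidneys. There 7 of the 9 lay below 0, with a median of -0.11. Of 15 other cadherins and catenins, Cdh22 fell by 0.90 in activated kidneys, where 10 of the 15 lay above 0. In wildtype kidneys 0 genes of the destruction complex, of the nuclear partners and of the other cadherins passed.

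Some markers of the kidney's and other cell types also passed in these contrasts, and their part in the values of catenins and cadherins was not tested. Over all probe sets 2.36% were called higher and 1.04% lower between the runs in activated kidneys, against 2.43% and 1.06% in wildtype kidneys. In both genotypes 0 of 5 endothelium and 0 of 5 muscle markers passed between the runs. Of 5 macrophage markers, 3 were called higher in activated kidneys (Cd68, Csf1r and Ptprc) and 1 in wildtype kidneys (Cd68). Their summed deposited intensity was 1125 to 1204 in the higher run against 392 to 617 in the lower run of activated kidneys, and 934 to 1214 in the higher run against 424 to 746 in the lower run of wildtype kidneys. The embryonic globins Hbb-y and Hba-x, 2 of 3 measured erythroid markers, had run differences of -2.27 and -2.15 (log2) in activated and of -1.92 and -2.07 in wildtype kidneys. The remaining erythroid marker lay at 0.06 in activated and at -0.53 in wildtype kidneys. Of 5 proximal tubule markers, 2 averaged above the control level. The endocytic receptor Lrp2 was higher by 0.92 in activated and by 1.35 in wildtype kidneys of the higher run. In activated kidneys 2 of the 5 lay below 0, down to -0.25, and in wildtype kidneys 0 did. Podxl, 1 of 3 measured podocyte markers, was higher by 1.29 in wildtype kidneys, where 1 of the 3 lay below 0, at -0.26. In activated kidneys the cap mesenchyme markers Six2 and Cited1 were higher by 1.84 and 2.47 in the higher run. Of the 6 cap mesenchyme markers 5 lay above 0 and 1 below. Of 4 neuronal markers, Dcx and Elavl4 were higher there by 2.58 and 1.42, and 2 lay below 0, down to -0.82. Dcn of the stroma was higher by 1.00 in activated and by 0.70 in wildtype kidneys. Markers lower in the higher run were Wnt4 of the early nephron in activated kidneys (-0.93), and Foxd1 of the stroma (-0.65) and the neuronal Stmn2 (-1.61) in wildtype kidneys. In wildtype kidneys 3 of 6 stroma markers and 2 of 4 neuronal markers lay above 0 in that contrast.

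In the lower run, where Cdh2 1418815_at had its negative difference between genotypes, 3 of 6 cap mesenchyme markers passed, and all 3 fell, against 0.132% of all probe sets called lower. They were Six2 (-2.01), Meox1 (-1.52) and Uncx (-1.50). The summed intensity of the 6 markers was 413 to 707 on the activated against 1914 to 2293 on the wildtype arrays of the lower run, and 1468 to 1861 on the activated against 1882 to 2201 on the wildtype arrays of the higher run. Further genes that passed in the lower run were Calb1 of the ureteric epithelium (-1.02), Foxd1 of the stroma (-0.93) and the neuronal Dcx (-3.41). Their lists were mixed there. Above 0 lay 2 of 6 ureteric epithelium markers (up to 0.28), 2 of 6 stroma markers (up to 0.57) and 1 of 4 neuronal markers (1.04).

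For each gene, the probe sets whose course over the 12 arrays was most like that of its brightest probe set were found among 13439 to 13441 probe sets that averaged above the control level. Cdh16 was most like Prss8 (Pearson r = 0.970, rho = 0.939) and Wfdc2 (r = 0.968, rho = 0.972). Cdh2 was most like Mcm2 (r = 0.963, rho = 0.944) and Mcm6 (r = 0.956, rho = 0.937), subunits of the replicative helicase. Cdh1 was most like Cs (r = 0.955), Jup like Mfsd1 (r = 0.965), Ctnna1 like Cxcl1 (r = 0.963) and Cldn2 (r = 0.960), and Ctnnd1 like Nbr1 (r = 0.950), which was also the second most like Cdh1 (r = 0.950).

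Likeness was lower for the remaining genes. Cdh11 was most like Cast (r = 0.942), Ctnnb1 like Amn (r = 0.909), Cdh3 like Psmd13 (r = 0.864) and Cdh6 like Ppic (r = 0.852). All these values are over 12 arrays that share their run and their scaling. They are the highest of all probe sets searched, so they are given as a description. Within runs, Ctnnb1 and Amn had r = 0.326 in the lower run and r = 0.945 in the higher run.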

How the data were processed

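Total RNA of 12 cultured fetal mouse kidney samples was labelled with an Affymetrix 3' IVT kit, per the labels' protocols. The authors deposited a linear intensity per probe set, scaled so that the trimmed mean of every array was 250.1; no source used here names the software. Probe sets were named from the platform annotation, and 691 with several symbols, 1555 with none and 64 controls were left out. Values were quantile normalised as log2(intensity + 16) and fitted with limma 3.58.1 (trend, Benjamini-Hochberg) in R 4.3.3. The main fit used genotype alone; others had run as a term, each run alone, or 4 genotype-by-run means. The number of arrays limits the precision. Alternatives were other scalings, offsets, filters, covariates and each array left out. The code was tested on simulated data. Genes named outside the 10 came from lists by a fixed rule: those past the threshold, otherwise the 2 with the smallest p, and the 2 most alike each member. Outside this rule, Cdh13, Esrp1, Twist1, Vim and other genes in brackets after counts of values above 0 were also named. Members and lists were chosen with earlier results of these data known.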

Additional observations from a re-analysis of the deposited data

Results flagged for a closer look

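On Cdh6 probe set 1450288_at, activated array 5 stood apart from its group at 5.43, while the other 5 activated arrays lay between 6.06 and 6.38. Its gap to the nearest of them was 0.662 of the group's range, above the critical value of 0.625 for 6 arrays. Of 30 such checks (15 probe sets in each genotype) this was the 1 that passed, where chance gives about 1 in 20.

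On Cdh2 probe set 1418815_at every activated array was above every wildtype array in the higher run and below every wildtype array in the lower run. The effects differed by 0.742 (log2, higher minus lower run), which the test of the difference did not call (limma adjusted p = 0.154).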

How the results depend on the processing

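No paired analysis was possible because the array numbers follow accession order and the title numbers differ between all arrays. In comparisons with 0 calls among the 15 probe sets, 2 fits gave a call. With the Gapdh 5'/3' ratio as a covariate the difference of effects between the runs had 1 call (Cdh2 1418815_at) in place of 0. With Y-linked level as a covariate the run difference in activated kidneys had 1 call (Cdh1, 0.78, limma adjusted p = 0.0325) in place of 0. Leaving out each array in turn gave 0 to 0 calls in every comparison except the run difference in wildtype kidneys, with 2 to 3. In that comparison, with 3 calls, the count was also 2 with the values as deposited, with median centring, without a variance trend and at an adjusted p under 0.01, and 4 with either covariate. Cdh2 1418815_at (-0.90 to -0.75) and Cdh16 (0.90 to 1.27) passed in all 17 alternatives, Ctnna1 1437807_x_at did not, Cdh1 passed with the Y-linked covariate and without wildtype array 1, and Ctnnb1 1450008_a_at passed with the 5'/3' covariate (0.77, adjusted p = 0.00451). Cdh6 between genotypes over the 12 arrays ranged over 0.49 to 0.78 with adjusted p from 0.299 to 0.834, and passed in 0 of 23 alternatives. Probe sets near the bacterial controls (Cdh3, Cdh6, Ctnna1 1437275_at) were limited by signal.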
